A study of Mus musculus with 32 samples.

Results

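The p53 target genes described here are Mdm2, Ccng1, Cdkn1a, Fas, Gadd45a and Plk2, measured in UB/OC-1 cells. The members were the probe sets whose platform annotation gives one of these 6 symbols and no other, on either of the array designs used, and there were 10 of them among 13057 probe sets that are not controls. The 6 genes are among 6137 that the designs cover by a single symbol. All 10 probe sets exceeded a background floor on 2 or more arrays and so could be tested, among 7726 tested in all. Mdm2 had 3 probe sets, Cdkn1a and Fas 2 each, and Ccng1, Gadd45a and Plk2 1 each.

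UB/OC-1 is a mouse cell line, conditionally immortal and derived from the embryonic organ of Corti (the hearing organ of the cochlea), and every sample is this 1 line. Total RNA of cells from 16 combinations of experiment and day was put on 2 oligonucleotide array designs, a and b, which gave 32 arrays. The labels do not say whether both designs of a day received the same RNA. The cells of day 0 were at 33 °C and are labelled undifferentiated, and the cells of all later days were at 39 °C, the condition the labels call differentiating. In experiment A there were 12 time points, day 0 to day 9 without a gap and then 11 and 14. Experiment B had 4, at days 0, 2, 4 and 9. A design thus has 2 arrays of day 0, 4 of the early phase (days 1 to 3), 5 of the middle phase (days 4 to 7) and 5 of the late phase (days 8 to 14). Since only day 0 was at 33 °C, temperature, time and anything else that changed with the move to 39 °C cannot be told apart in a comparison with day 0. The number of arrays limits the precision. No label says that the samples came from separate cultures, so a p-value measures the spread between these samples alone, part of which may be technical. In the phase comparisons that spread also holds differences between the days of a phase and, without a block, between experiments A and B.

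p53 is a transcription factor that is stabilised after DNA damage and other stress and that switches on genes of cell cycle arrest, DNA repair and cell death. One of its targets, Mdm2, encodes the ubiquitin ligase that marks p53 for degradation, so that the pathway limits itself. Another, Cdkn1a, encodes p21, an inhibitor of cyclin-dependent kinases. Withdrawal from the cell cycle is part of how sensory precursors of the organ of Corti mature, which is why cell cycle inhibitors are studied in this tissue.

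p53 binds DNA as a tetramer, at a pair of copies of a short half-site. The windows below show where these letters stand relative to the start of the 4 member genes that hold one, so that a reader can place the later values beside the sequence. Each is 1 RefSeq promoter window of build GRCm38.p6, 250 bases before to 50 after the annotated start, written 5′ to 3′ on the gene's own strand, with half-sites in capitals. All 6 genes matched an entry, in 7 windows, since Cdkn1a has 2 starts.
Mdm2: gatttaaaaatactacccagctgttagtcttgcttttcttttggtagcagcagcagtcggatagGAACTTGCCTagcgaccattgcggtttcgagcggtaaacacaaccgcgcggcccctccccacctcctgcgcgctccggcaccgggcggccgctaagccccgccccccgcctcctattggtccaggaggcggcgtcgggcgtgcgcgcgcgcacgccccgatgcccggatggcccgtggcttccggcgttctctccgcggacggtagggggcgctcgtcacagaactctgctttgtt
Ccng1: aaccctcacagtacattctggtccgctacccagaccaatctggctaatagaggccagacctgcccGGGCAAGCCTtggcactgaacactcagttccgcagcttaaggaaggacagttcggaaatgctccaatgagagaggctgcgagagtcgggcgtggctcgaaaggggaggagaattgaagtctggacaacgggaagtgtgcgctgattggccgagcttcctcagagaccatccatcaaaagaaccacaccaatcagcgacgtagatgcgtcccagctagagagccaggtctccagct
Cdkn1a: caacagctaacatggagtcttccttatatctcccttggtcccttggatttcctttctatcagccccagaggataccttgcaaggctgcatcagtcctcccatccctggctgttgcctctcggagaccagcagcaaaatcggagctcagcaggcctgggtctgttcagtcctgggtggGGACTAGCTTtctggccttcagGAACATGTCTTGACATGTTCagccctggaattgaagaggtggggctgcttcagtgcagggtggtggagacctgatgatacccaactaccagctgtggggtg
Gadd45a: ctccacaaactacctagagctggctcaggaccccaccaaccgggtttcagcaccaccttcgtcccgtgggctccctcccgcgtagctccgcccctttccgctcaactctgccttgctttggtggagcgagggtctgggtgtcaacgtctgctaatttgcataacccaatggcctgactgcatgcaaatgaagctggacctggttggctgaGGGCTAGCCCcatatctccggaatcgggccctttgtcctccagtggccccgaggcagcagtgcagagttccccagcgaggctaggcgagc

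The Mdm2 window is chr10:117710709-117711008 on the minus strand and that of Ccng1 is chr11:40755237-40755536, also minus. The Cdkn1a window is chr17:29090729-29091028 on the plus strand, at the upstream of its 2 starts, and that of Gadd45a is chr6:67037358-67037657 on the minus strand. The letters searched were those of the usual p53 half-site consensus, which reads the same on both strands. It begins 186 bases before the start of Mdm2, 185 before that of Ccng1 and 40 before that of Gadd45a. At the upstream start of Cdkn1a there is 1 half-site 73 bases before and 1 at 51 bases before, and the second is followed at once by another copy with 1 mismatch (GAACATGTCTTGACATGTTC, chr17:29090928-29090947). A half-site stands in 2745 of all 32851 windows of this length (8.36%), and an adjoining pair with at most 2 mismatches in 52 (0.158%). The windows of Fas, Plk2 and the downstream Cdkn1a start hold no half-site, which says only that these letters are not in these 300 bases.

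Values below are deposited array intensities, on a linear scale that includes negative numbers. For the tests, intensities under a floor (141 on design a and 198 on design b) were set to it and log2 was taken, so a change is a log2 difference of floored intensities, given with its standard error (SE). An array had 44.3% to 50.8% of its probe sets over the floor in design a and 30.9% to 40.4% in design b. Levels are not compared between probe sets. A change passed where the Benjamini-Hochberg adjusted p of limma, over all 7726 probe sets, was under 0.05.

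In outline, Mdm2 and Ccng1 rose in the first days at 39 °C. Gadd45a passed as higher in the middle and late days, and its early change of 1.04 did not pass. Plk2 passed as lower late, and its early and middle changes of -1.15 and -1.39 did not pass. No member passed late against early, so the phase in which a change passed is not its time of onset. No probe set annotated to Cdkn1a or Fas alone passed in any phase with the floor used here. Of the 10 probe sets, 3 were higher early than on day 0 and 0 lower, where 1.45% of all tested probe sets were higher and 2.05% lower. In the middle days 4 were higher and 0 lower, beside 3.61% and 4.58% of all. In the late days 2 were higher and 1 lower, beside 4.84% and 6.08% of all. The early and middle counts hold 2 Mdm2 probe sets from 1 source sequence. By gene, 2 of 6 were higher early, 3 in the middle days and 2 late, and 1 was lower late, while the shares are over probe sets. With experiment as a block the members' counts were the same early (3 and 0, beside 2.61% and 3.46% of all) and late (2 and 1, beside 6.82% and 7.64%), and in the middle days Plk2 was also lower (4 and 1, beside 5.99% and 6.42%). The median change of the 10 was 1.06 early, 1.19 middle and 0.56 late, against 0.05, 0.08 and 0.11 over all tested probe sets.

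**Figure D1:**
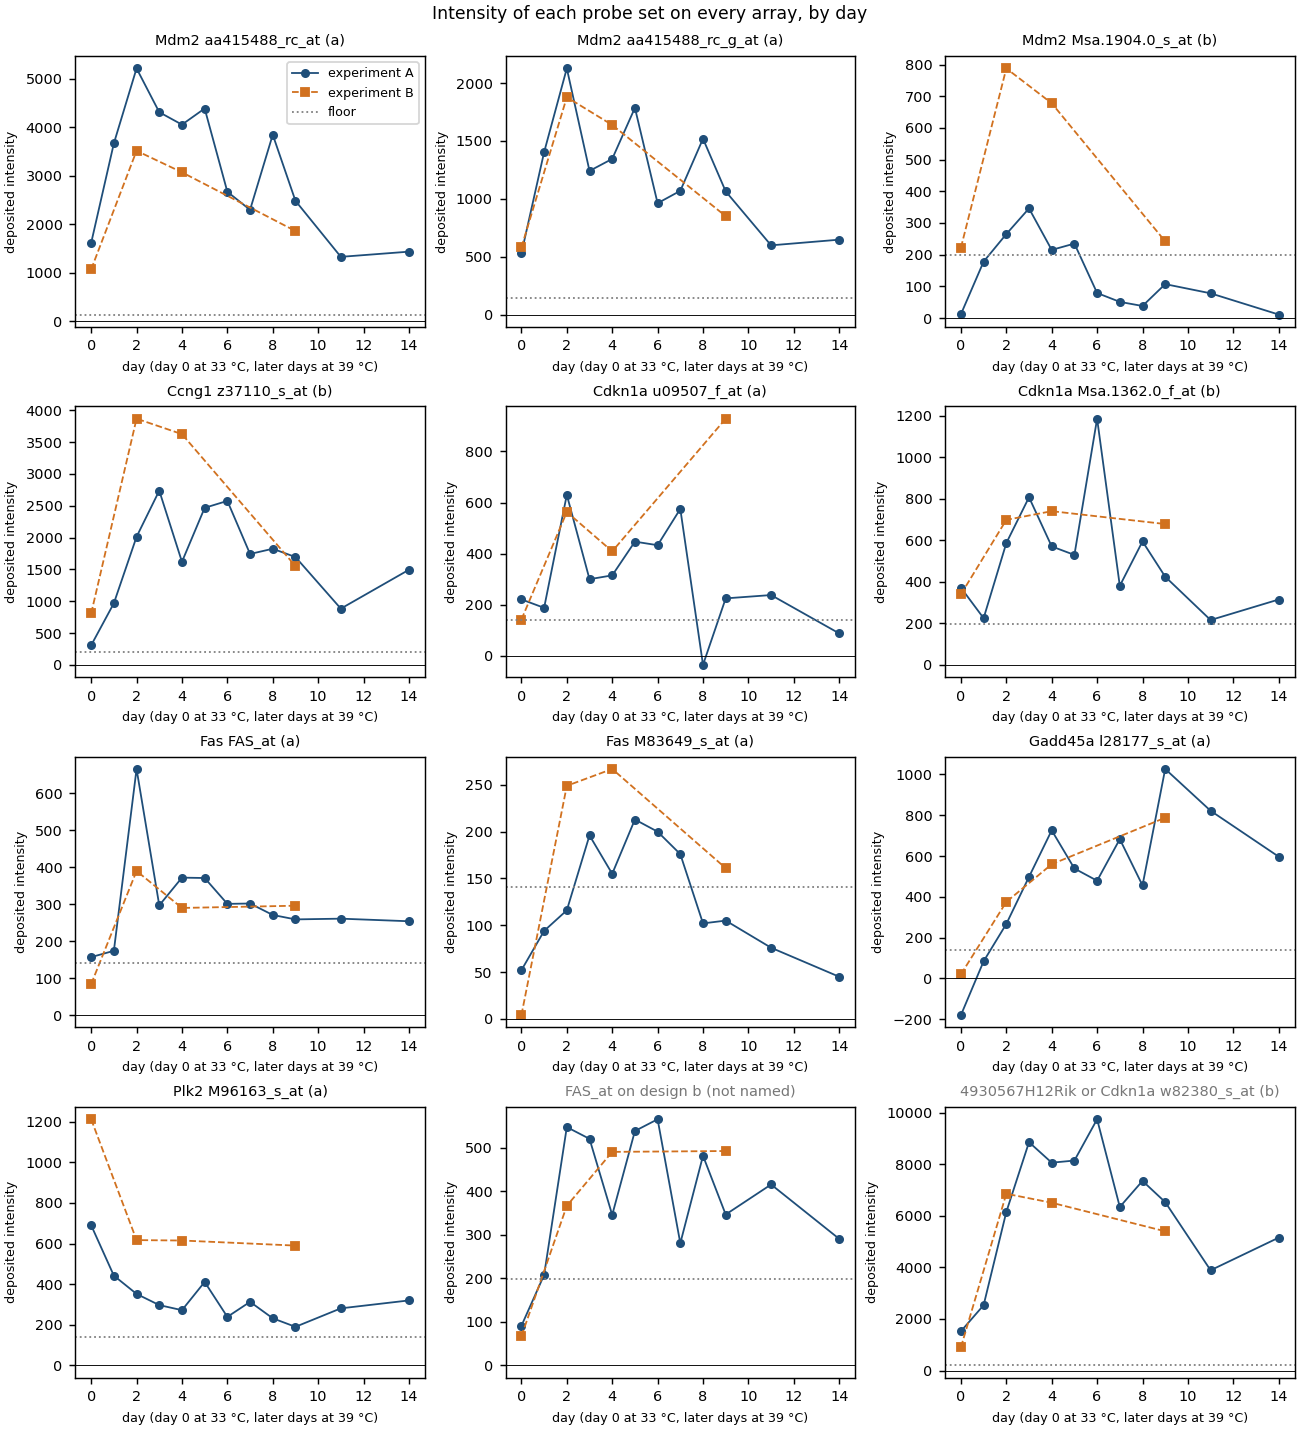
Deposited intensity (linear scale, arbitrary units) of each probe set on every array against the day, with experiment A as circles and experiment B as squares, the floor dotted, and a scale of its own in each panel. The first 10 panels are the member probe sets, and the last 2 (grey titles) are probe sets that the annotation does not assign to a single member. Mdm2 is highest on day 2 in both experiments with both probe sets of design a, while Gadd45a goes from at most 20 on day 0 to 456 or more in the late days.

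Mdm2, the ubiquitin ligase that acts on p53, read 1616 in experiment A and 1071 in experiment B on day 0 with the probe set aa415488_rc_at (design a). Early it read 3666, 5210 and 4308 on days 1, 2 and 3 of experiment A and 3513 on day 2 of experiment B. In the middle days it read 4052, 4384, 2669 and 2297 in A and 3070 in B, and late 3844, 2483, 1329 and 1436 in A and 1861 in B. Every early and middle array was thus above both day 0 arrays, while days 11 and 14 had returned into the day 0 range. The early change was 1.65 ± 0.372 (SE, 3.13-fold, adjusted p = 0.0152 by limma) and the middle change 1.28 ± 0.359 (2.43-fold, adjusted p = 0.0313 by limma). Late the change was 0.62 with a 95% interval from -0.13 to 1.37 (adjusted p = 0.334 by limma).

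The probe set aa415488_rc_g_at comes from the same source sequence as aa415488_rc_at and is not an independent measure of Mdm2. It read 528 (A) and 580 (B) on day 0, 1403, 2127, 1241 (A) and 1878 (B) early, 1345, 1786, 962, 1069 (A) and 1638 (B) in the middle days, and 1519, 1064, 598, 647 (A) and 850 (B) late. All 14 arrays at 39 °C were above both arrays of day 0, most narrowly on days 11 and 14. It rose by 1.55 ± 0.361 early (2.94-fold, adjusted p = 0.0191 by limma) and by 1.26 ± 0.349 in the middle days (2.39-fold, adjusted p = 0.0302 by limma). The Mdm2 probe set of design b lay near its floor of 198 in experiment A and did not pass in any phase. In A it read 12 on day 0, at most 346 (day 3) and 11 on day 14, and in B it read 222, 788, 678 and 242 on days 0, 2, 4 and 9. It peaked on day 3 in A and on day 2 in B, and B was above A on each shared day.

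The Mdm2 calls rest on few arrays. Without day 0 of experiment B the early adjusted p was 0.228 for aa415488_rc_at and 0.115 for aa415488_rc_g_at, and the latter was 0.11 without day 0 and 0.0543 without day 2 of experiment A. The middle calls of both were lost without day 0, 4 or 5 of A or day 0 of B (adjusted p from 0.0513 to 0.356), with no change in direction. Within experiment A alone the changes were 1.43 and 1.55 early and 1.00 and 1.25 in the middle days, and none passed, the day 0 group then being 1 array. With no filter on low values, where more probe sets are tested, aa415488_rc_g_at early (adjusted p = 0.0522 by limma) and both probe sets in the middle days (0.0828 and 0.0752) did not pass.

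Ccng1, which encodes cyclin G1, an atypical cyclin that recruits a phosphatase to MDM2, read 307 in experiment A and 807 in experiment B on day 0 (probe set z37110_s_at, design b). Early it read 968, 2012 and 2737 in A and 3868 in B, in the middle days 1619, 2467, 2576 and 1742 in A and 3625 in B, and late 1824, 1694, 883 and 1494 in A and 1552 in B. All arrays at 39 °C were above both of day 0, although day 11 of A (883) and day 1 of A (968) were close to the 807 of experiment B. The rise was 2.10 ± 0.489 early (4.28-fold, adjusted p = 0.0192 by limma), 2.21 ± 0.472 in the middle days (4.63-fold, adjusted p = 0.00529) and 1.54 ± 0.472 late (2.91-fold, adjusted p = 0.0422). Experiment B was 0.81 ± 0.27 above experiment A over all days (adjusted p = 0.0311 by limma), with 807 against 307 on day 0, 3868 against 2012 on day 2, 3625 against 1619 on day 4 and 1552 against 1694 on day 9. Without day 0 of experiment A no phase passed, with changes of 1.40 early, 1.51 middle and 0.84 late (adjusted p = 0.286, 0.149 and 0.422 by limma), and the early call was also lost without day 3 of A (adjusted p = 0.0605). The late call was further lost without day 2, 5, 6, 8, 9 or 14 of A or day 9 of B (adjusted p from 0.051 to 0.0785), and with experiment as a block it stood at an adjusted p of 0.00452. The late call was also lost with a lower floor (adjusted p = 0.0538 by limma), no filter (0.0913), quantile normalization (0.0762), an arcsinh scale (0.0677) and eBayes without trend and robust (0.0581). Taking the noise of each array as a covariate moved the late change to 2.23 (adjusted p = 0.000934).

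Cdkn1a has a pair of probe sets whose names end in f_at, which marks probes common to members of a family, so it is uncertain which gene they measure. On u09507_f_at (design a) day 0 read 221 (A) and 142 (B), early 188, 630, 300 (A) and 563 (B), middle 315, 447, 433, 575 (A) and 409 (B), and late -35, 225, 238, 88 (A) and 928 (B). On that of design b day 0 read 372 and 340, early 225, 587, 808 and 699, middle 571, 530, 1187, 381 and 741, and late 595, 425, 216, 315 and 679, with experiment B last in each phase. Only the middle arrays lay wholly above day 0 on either probe set. The middle changes were 1.27 ± 0.598 (adjusted p = 0.246 by limma, 95% interval from 0.02 to 2.52) and 0.83 ± 0.532 (adjusted p = 0.452, interval from -0.28 to 1.95). Late, the changes were 0.50 and 0.21 over all arrays but -0.29 and -0.04 within experiment A, and the second was -0.02 after quantile normalization, so no direction can be given.

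Another probe set, w82380_s_at on design b, is annotated both to 4930567H12Rik and to Cdkn1a and so can be assigned to neither. It was picked for mention because of this double annotation and belongs to no count. It read 1523 (A) and 901 (B) on day 0, from 2535 to 8861 early, from 6347 to 9750 in the middle days and from 3890 to 7358 late. It rose by 2.24 early (4.74-fold, adjusted p = 0.00319 by limma), by 2.71 in the middle days (6.54-fold, adjusted p = 0.000193) and by 2.24 late (4.73-fold, adjusted p = 0.00088). Its size of change was larger than that of either probe set annotated to Cdkn1a alone, and whether it reports Cdkn1a was not tested.

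Fas, the death receptor of the tumour necrosis factor receptor family, read 157 (A) and 84 (B) on day 0 with FAS_at on design a, where the floor is 141. Early it read 174, 666, 297 (A) and 390 (B), middle 372, 371, 301, 302 (A) and 290 (B), and late 271, 259, 261, 254 (A) and 296 (B). All 14 arrays at 39 °C were above day 0, with the highest on day 2 in both experiments, yet the changes of 1.19 ± 0.406 early, 1.13 ± 0.392 middle and 0.85 ± 0.392 late did not pass (adjusted p = 0.136, 0.0877 and 0.206 by limma). Without day 1 of experiment A the early change was 1.52 and passed (adjusted p = 0.0208), and the middle change passed without day 1 (0.0438) or day 2 (0.0409) of A. The second Fas probe set, M83649_s_at, was near the floor throughout, from 4 to 267, and its changes of 0.32, 0.50 and 0.04 did not pass either. With a lower floor the middle change passed for both, FAS_at at 2.83-fold and M83649_s_at with a log2 change of 1.63 (adjusted p = 0.0464 for each by limma). That of M83649_s_at also passed on an arcsinh scale (0.81, adjusted p = 0.0345). The probe set of the same name as the first on design b, which the annotation leaves unnamed there, read 91 (A) and 67 (B) on day 0 and from 208 to 566 at 39 °C, with changes of 0.96, 1.12 and 1.01 that did not pass (adjusted p = 0.32, 0.112 and 0.14 by limma).

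Gadd45a, a stress protein that binds PCNA and the CDK1 kinase, rose in the middle and late days. On l28177_s_at (design a) it was listed below its floor on day 0, at -180 (A) and 20 (B). Early it read 84, 267, 498 (A) and 375 (B), middle 726, 539, 479, 683 (A) and 560 (B), and late 456, 1027, 822, 597 (A) and 788 (B). Day 1 was still under the floor and all later arrays were above it, up to the highest value on day 9 in both experiments. With both day 0 arrays at the floor a fold is a lower bound. Gadd45a was at least 4.19-fold higher in the middle days (2.07 ± 0.417, adjusted p = 0.00341 by limma) and at least 5.04-fold higher late (2.33 ± 0.417, adjusted p = 0.0011). With a higher floor these bounds came to 2.17-fold and 2.62-fold (adjusted p = 0.0358 and 0.00799 by limma), and with a lower one to 9.25-fold and 11.1-fold. These calls held with each of the 16 arrays left out, and within experiment A alone the middle one did not pass (adjusted p = 0.0601). The early change of 1.04 ± 0.432 did not pass (adjusted p = 0.267 by limma), but did on an arcsinh scale (1.67, adjusted p = 0.0277) and when day 1 of A was left out (1.38, adjusted p = 0.0477).

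Plk2, a polo-like kinase that acts on centriole duplication, was the 1 member that went down. On M96163_s_at (design a) it read 690 (A) and 1212 (B) on day 0, then 442, 352, 297 (A) and 617 (B) early, 272, 411, 239, 313 (A) and 615 (B) in the middle days, and 232, 190, 281, 320 (A) and 590 (B) late. Every array at 39 °C was below both of day 0, and experiment B was above experiment A on each of the 4 shared days, by 0.98 ± 0.206 over all days (adjusted p = 0.00161 by limma). The late level was 3.07-fold below day 0 (-1.62 ± 0.454, adjusted p = 0.0264 by limma). The early change was -1.15 ± 0.47 (adjusted p = 0.254) and the middle change -1.39 ± 0.454 (adjusted p = 0.0679), which passed with experiment as a block (-1.10, adjusted p = 0.0205) and without day 4 (0.0293) or day 9 (0.0413) of experiment B. The late call was lost without day 0 of experiment B (-1.21, adjusted p = 0.353), day 8 of A (0.0514) or day 9 of A (0.0579), and also with no filter (0.062) and within experiment A alone (0.0594). The middle change passed with a higher floor (-1.36, adjusted p = 0.0301 by limma), on an arcsinh scale (-1.21, 0.0473) and with the noise covariate (-1.41, 0.0323).

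**Figure D2:**
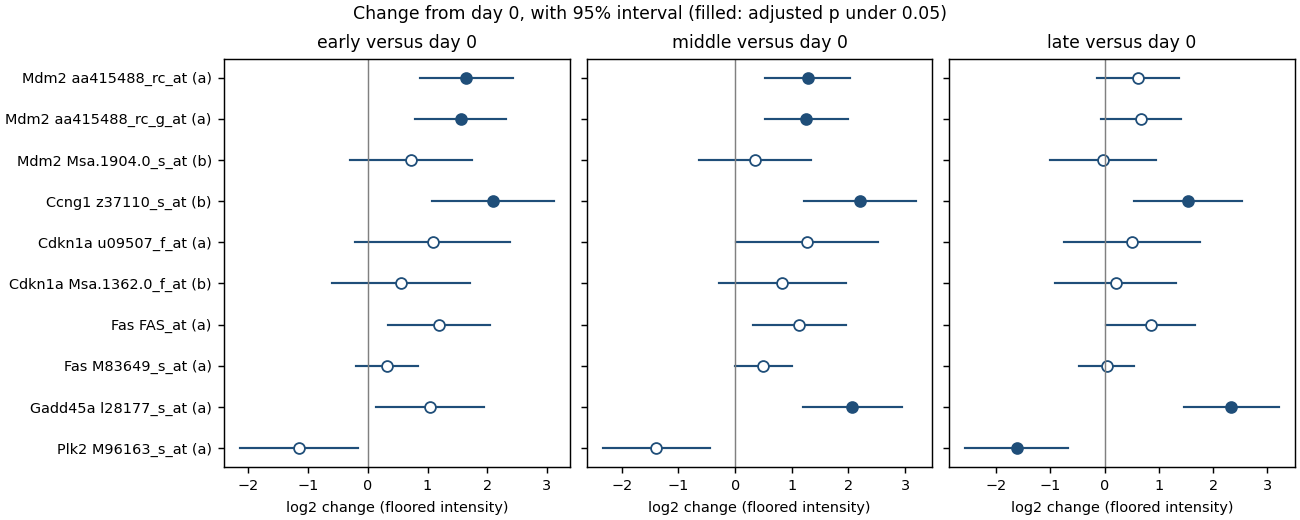
Change from day 0 in log2 of floored intensity for each of the 10 member probe sets, early, middle and late, with bars for the 95% interval and filled points where the limma adjusted p was under 0.05. Filled points to the right are Mdm2 and Ccng1 early, Mdm2, Ccng1 and Gadd45a in the middle days, and Ccng1 and Gadd45a late, and the 1 filled point to the left is Plk2 late; the late signs of Cdkn1a and of the Mdm2 probe set of design b turn under other settings.

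The arrays of a phase that did not overlap with day 0 can be counted as well. Early, 4 member probe sets lay wholly above day 0 and 1 wholly below, where 7.17% of all tested probe sets lay above and 8.56% below. In the middle days 8 lay above and 1 below, beside 10.1% and 10.4% of all. Above day 0 early and in the middle days are both Mdm2 probe sets of 1 source sequence, which are 1 gene. Late, 4 lay above and 1 below, beside 10.5% and 10.4%.

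The late days were also set against the early days, all at 39 °C, which asks how the members moved once the cells had left 33 °C. No member probe set passed by limma, where 0.427% of all were higher and 0.557% lower. An unadjusted p under 0.05, for which no share over all tested is given here, was reached by 3. Those were the pair of Mdm2 probe sets from 1 source sequence, with late minus early changes of -1.03 ± 0.288 (adjusted p = 0.107) and -0.88 ± 0.28 (adjusted p = 0.184), and Gadd45a, with 1.30 ± 0.335 (adjusted p = 0.0768). For all 3 the arrays of the phases overlapped. With experiment as a block Gadd45a passed (1.30, adjusted p = 0.0365, beside 1.06% of all tested higher and 1.32% lower), as it did when day 3 (0.0276) or day 8 (0.0484) of A was left out, and Mdm2 aa415488_rc_at passed without day 8 of A (-1.26, adjusted p = 0.0233). The median over the members was -0.51, against 0.05 over all tested probe sets.

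A spline in the day, with 3 degrees of freedom, tests for any smooth change without dividing the days. It passed for 4 of the 10 probe sets, where 9.73% of all tested passed. They were Gadd45a (adjusted p = 0.000244 by limma), Ccng1 (0.00413) and Mdm2 with aa415488_rc_at (0.00728) and aa415488_rc_g_at (0.0199). Plk2 had an adjusted p of 0.109, and of 0.0225 with experiment as a block or 0.0341 without day 9 of experiment B. Without day 0 of experiment A the adjusted p was 0.0555 for Ccng1 and 0.0721 for Mdm2 aa415488_rc_g_at, and without day 0 of B it was 0.0818 for the latter, which also did not pass with no filter (0.0519) or within experiment A alone (0.181). Fas M83649_s_at passed this test with a lower floor (0.0174) and on an arcsinh scale (0.0224).

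Days 0, 2, 4 and 9 were sampled in both experiments, so each of these days has 2 arrays of a design. On day 2, Mdm2 aa415488_rc_g_at had risen by 2.01 in experiment A and 1.69 in experiment B, and its mean change of 1.85 ± 0.254 passed (adjusted p = 0.045 by limma). It was the 1 member probe set called on day 2, beside 0.285% of all tested higher and 0.298% lower. On day 4 Gadd45a had risen by 2.36 in A and 1.99 in B (at least 4.52-fold, adjusted p = 0.0418 by limma), again 1 of 10, beside 1.01% higher and 0.802% lower. On day 9 it had risen by 2.86 in A and 2.48 in B (at least 6.38-fold, adjusted p = 0.0226 by limma), 1 of 10 beside 1.41% and 1.28%. With 4 residual degrees of freedom these calls are fragile, and each was lost without some of the 8 arrays. Leaving 1 out leaves 1 array on its day. Without day 4 or 9 of A or of B no tested probe set passed on day 2, so those losses were not particular to Mdm2. Few passed on day 9 without day 4 of A or of B. Mdm2 on day 2 was lost without day 0, 2, 4 or 9 of A or day 4 or 9 of B (adjusted p from 0.0933 to 0.157 by limma). Gadd45a on day 4 was lost without day 0, 4 or 9 of A or day 0, 4 or 9 of B (from 0.0702 to 0.26), and on day 9 without day 0, 4 or 9 of A or day 4 or 9 of B (from 0.0584 to 0.0791). Other settings ended the first and second of these calls as well. Mdm2 on day 2 did not pass with a lower floor (adjusted p = 0.0901 by limma), a filter on 8 arrays (0.0511), quantile normalization (0.0838), an arcsinh scale (0.0596) or the noise covariate (0.0632). Of all tested probe sets 0.0416%, 0.3%, 0.142%, 0.22% and 0.414% passed on day 2 in these settings, against 0.582% in the main fit. Gadd45a on day 4 did not pass with a higher floor (1.23, 2.35-fold, adjusted p = 0.105 by limma), no filter (0.0619), quantile normalization (0.0539) or the noise covariate (0.0564). The share of all tested that passed on day 4 was 3.05%, 1.19%, 1.41% and 1.64% there, against 1.81% in the main fit. On day 9 Gadd45a still passed with a higher floor, at 3.32-fold (adjusted p = 0.0381). Mdm2 aa415488_rc_g_at passed on day 4 with a higher floor (0.0387) and with eBayes without trend and robust (0.0299). With no filter Ccng1 passed on days 2 and 4 (0.00183 and 0.0038) and Mdm2 aa415488_rc_at on day 2 (0.0478). With experiment as a block Mdm2 aa415488_rc_at also passed on day 2 (adjusted p = 0.0244) and day 4 (0.0155), Mdm2 aa415488_rc_g_at on day 4 (0.0328), and Plk2 on day 9 (0.048).

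**Figure D3:**
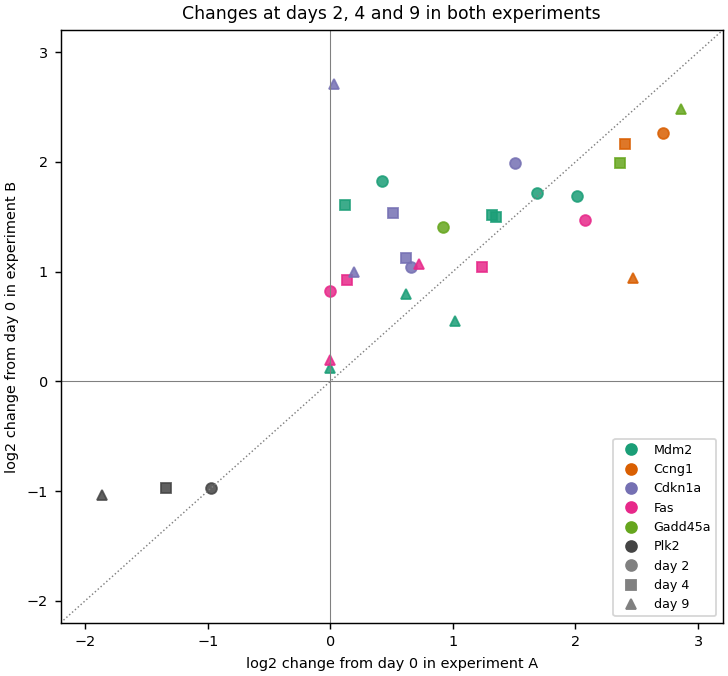
Log2 change from day 0 of the same experiment in experiment A (horizontal) and experiment B (vertical) for the 10 member probe sets on days 2, 4 and 9, by gene (colour) and day (shape), with the line of equal change dotted. Plk2 lies below 0 in both experiments on all 3 days, and Gadd45a, Ccng1 and the pair of Mdm2 probe sets of design a lie above 0 in both; a Cdkn1a point on day 9 stands apart, at 0.03 in A and 2.71 in B.

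The 2 experiments differed in level for some members and were tested for a difference in response. Over all days experiment B was above A for Plk2 and Ccng1, as given above, for the Mdm2 probe set of design b by 1.00 ± 0.229 (adjusted p = 0.00345 by limma) and for Fas M83649_s_at by 0.38 ± 0.138 (adjusted p = 0.0468). Those are 4 of 10 probe sets, where 14.7% of all tested were higher in B and 15.6% lower. The change on leaving 33 °C was not shown to differ between experiments for any member. Of the 10, 0 passed by limma, beside 3.04% of all tested. An unadjusted p under 0.05 was reached by 0 of the 10, beside 756 of all 7726 tested. A p that misses the threshold does not show that the responses were equal.

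The other genes of the pathway were taken by list. Of 20 genes that encode p53 or its regulators, 4 could be tested with 5 probe sets (Cdkn2a, Crebbp, Mdm4 and Usp7). None passed in a comparison with day 0 by limma, and 1, 3 and 1 had an unadjusted p under 0.05 early, middle and late. No share over all tested is given here for such an unadjusted p. Mdm4, the partner of MDM2 in restraining p53, changed by 0.23 early, 0.29 middle and 0.31 late (adjusted p = 0.884, 0.63 and 0.533 by limma). With experiment as a block 1 probe set of the list passed, in the middle days, that of Cdkn2a, whose locus encodes an inhibitor of MDM2 and one of the CDK4 and CDK6 kinases (1.22 without the block, adjusted p = 0.0319 with it and 0.157 without it). Trp53, Bax and Gadd45g had no probe set with 1 symbol in the annotation used and are not analysed here.

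Of 46 further genes known as p53 targets, 16 were tested with 17 probe sets. Early 1 was higher and 0 lower, and in the middle and late days 1 was higher and 1 lower, with list medians of 0.43, 0.40 and 0.56. The shares of all tested probe sets were 1.45%, 3.61% and 4.84% higher and 2.05%, 4.58% and 6.08% lower, so the late counts were near them. Foxo3, a forkhead transcription factor of stress and quiescence, was the one that rose: it read 84 and 357 on day 0, from 590 to 1944 early, from 875 to 2450 in the middle days and from 649 to 1733 late. All arrays at 39 °C were above day 0, and the changes were 1.92 ± 0.483, 2.59 ± 0.467 and 1.96 ± 0.467 (adjusted p = 0.0309, 0.0014 and 0.00933 by limma). Without day 0 of experiment B none of these passed (adjusted p = 0.366, 0.0528 and 0.198), and the early call was also lost without day 2 (0.0759) or day 3 (0.0963) of A, with a higher floor (0.1), with no filter (0.0685) and on an arcsinh scale (0.0587). Tap1, a peptide transporter of antigen presentation, was the one that fell: it read from 1184 to 1827 on day 0 and from 194 to 598 late (-2.03 ± 0.364, adjusted p = 0.0011 by limma). Its middle change of -1.27 (adjusted p = 0.0362) was lost without day 0, 4, 5, 6 or 7 of A or day 0 of B (adjusted p from 0.0546 to 0.284) and with no filter (0.0784). With experiment as a block 3, 4 and 3 of the 17 were higher and 0, 2 and 1 lower, beside 2.61%, 5.99% and 6.82% of all tested higher and 3.46%, 6.42% and 7.64% lower. The higher ones were Ddit4 and Ei24 beside Foxo3 in each phase, and also Polk in the middle days (adjusted p = 0.0329 by limma with the block). Thbs1 was lower beside Tap1 in the middle days (adjusted p = 0.0295 by limma with the block), these names being read off after the values were seen.

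Relatives of the members share a family with them but are not all p53 targets. Of 19 such genes 11 were tested with 14 probe sets, of which 0 were higher and 1 lower early, and 2 were higher and 1 lower in the middle days and late. Over all tested probe sets 1.45%, 3.61% and 4.84% were higher and 2.05%, 4.58% and 6.08% lower in the 3 phases. Ccni, a cyclin of the G-type family, rose by 1.35 ± 0.315 in the middle days and 1.19 ± 0.315 late (adjusted p = 0.0104 and 0.0188 by limma). Both calls were lost without day 0 of experiment A (0.125 and 0.167), and the late one without day 0 of B (0.056), and within experiment A alone neither passed (0.0541 and 0.0925). Cdkn1b, which encodes the inhibitor p27, rose with 1 of its 3 probe sets, AA274696_s_at, by 1.72 in the middle days and 1.59 late (adjusted p = 0.0267 and 0.0337 by limma). The middle call was lost without day 0 of A (0.256), and the late one without day 0, 8 or 9 of A or day 0 or 9 of B (from 0.0564 to 0.272). With no filter neither passed (0.0718 and 0.0871), and the late one was also lost with a higher floor (0.0539), quantile normalization (0.0597) and an arcsinh scale (0.0512). Its other probe sets changed by 0.24 and 1.11 in the middle days and did not pass (adjusted p = 0.577 and 0.231).

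Plk4, the polo-like kinase that starts centriole assembly, was lower in every phase, by -0.79 early, -0.81 middle and -0.73 late (adjusted p = 0.0344, 0.0126 and 0.0201 by limma). Its highest value on any array at 39 °C was 211, not far above the floor of 141, against 193 and 335 on day 0. Leaving out day 0 of B ended all 3 calls (adjusted p = 0.54, 0.335 and 0.481), and the early call was also lost without day 2, 3, 4, 5 or 7 of A or day 2 of B (from 0.0507 to 0.0832). With a lower floor none of the 3 passed (adjusted p = 0.634, 0.151 and 0.0554 by limma). Ccng2, the closest relative of Ccng1, changed by 1.01 early and 0.97 in the middle days (adjusted p = 0.479 and 0.326), and passed with experiment as a block (0.0496 and 0.0239). Gadd45b, the relative of Gadd45a that could be tested, changed by -0.09, -0.05 and 0.22 (adjusted p = 1, 0.98 and 0.749).

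The proteins that the members act on or with were a list of 20 genes (Fas signalling, and the cyclins, kinases and sliding clamp bound by p21 and GADD45A), of which 12 were tested with 13 probe sets. None was higher, and 1 was lower early, 2 in the middle days and 5 late, with medians of -0.45, -0.69 and -0.81. Beside these counts, 2.05%, 4.58% and 6.08% of all tested probe sets were lower, and 1.45%, 3.61% and 4.84% higher. The 5 were those of Cdk1, Ccna2, Ccne1 and a pair for Ppp2r5c, a phosphatase subunit, so none was a gene of Fas signalling. Ccne1, the cyclin that drives entry into S phase, went from 841 and 1042 on day 0 to between -40 and 534 late (-1.95 ± 0.519, adjusted p = 0.0194 by limma), a call lost without day 0 of A (0.0711) or of B (0.179) and with the noise covariate (0.0767). The early call of Cdk1 was lost without day 0, 2 or 3 of A or day 0 of B. The middle count was 1 without day 7 of A, 3 without day 2 of B and 4 without day 4 of B. Over all 7726 tested, 251, 347 and 399 were lower in these fits, against 354 in the main fit. Without day 0 of A or of B, which leaves 1 array of day 0, the middle and late counts fell. With 1 array left out the list median ran from -0.883 to -0.562 in the middle days and from -1.15 to -0.636 late. With experiment as a block the middle count was 5, beside 6.42% of all tested lower.

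A list of 21 genes that p21 and the repressive DREAM complex are known to lower gave 13 tested genes with 18 probe sets. None was higher, and 5 were lower early, 11 in the middle days and 13 late, with medians of -1.06, -1.29 and -1.39. The probe sets of Cdk1 and Ccna2 stand on this list and on that of the partners, so their late calls are counted in both. Of all tested probe sets 2.05%, 4.58% and 6.08% were lower in these phases, and 1.45%, 3.61% and 4.84% higher. Cdk1, the mitotic kinase, read 2708 and 3239 on day 0, from 1013 to 1848 early, from 1050 to 1392 in the middle days and from 906 to 1316 late. All arrays at 39 °C were below day 0, and the late change was -1.42 ± 0.274 (2.67-fold lower, adjusted p = 0.00192 by limma). Ccnb2, a mitotic cyclin, fell from 925 and 1302 to between 101 and 315 late (-2.29 ± 0.391, adjusted p = 0.000814 by limma, a low estimate, with 3 of the 5 late arrays under the floor). Rrm2, the small subunit of ribonucleotide reductase, was at or below its floor on all 5 late arrays with m14223_s_at and at least 6.76-fold lower (adjusted p = 0.000108 by limma; 3.52-fold with a higher floor), and with 4 probe sets for the gene, 3 passed late. Top2a, a topoisomerase measured with family-shared probe sets, fell by 1.80 and 1.94 on the log2 scale late (adjusted p = 0.00087 and 0.00489), Aurka by 1.58 with 1 of its probe sets (0.0374) and Ccna2 by 1.45 (0.00756).

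The early count of this list was 8, 2 and 1 without days 1, 2 and 3 of experiment A. Over all 7726 tested, 177, 108 and 102 were lower in these fits, against 158 in the main fit. Without day 0 of A or of B, which leaves 1 array of day 0, the early and middle counts fell. Without day 0 of B the late count fell too. With 1 array left out the list median ran from -1.28 to -0.915 early. It ran from -1.33 to -1.15 in the middle days and from -1.45 to -1.31 late. The late call of Ccna2 was lost without day 0 of B (adjusted p = 0.112 by limma) and that of Aurka without day 0, 8 or 9 of A or day 0 of B (from 0.0628 to 0.226), with a lower floor (0.0523) or with no filter (0.0847). On the same arrays neither family-shared probe set annotated to Cdkn1a alone passed, and it is uncertain which gene they measure. The probe set annotated to both 4930567H12Rik and Cdkn1a rose, by 2.24 early, 2.71 in the middle days and 2.24 late. Whether it reports Cdkn1a, and a link between this list and p21, were not tested.

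**Figure D4:**
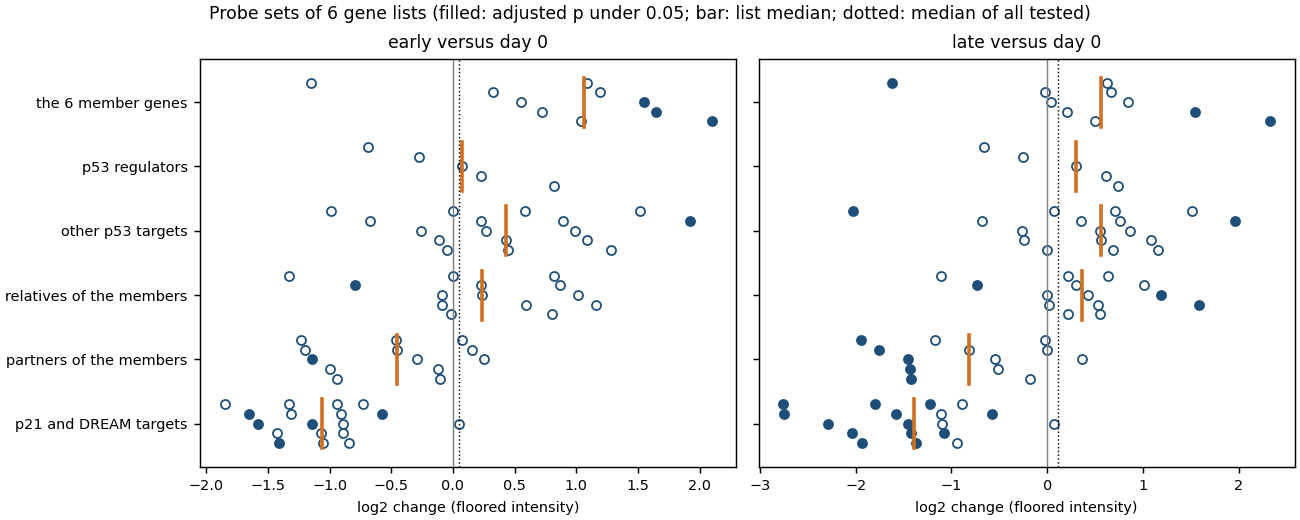
Log2 change of floored intensity of each probe set of the 6 lists, early and late against day 0, with filled points where the limma adjusted p was under 0.05, a bar at each list's median and a dotted line at the median of all tested probe sets (0.05 early, 0.11 late). The members spread widely, from -1.15 to 2.10 early, while the p21 and DREAM list lies below 0 for all but 1 probe set in either panel.

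Other probe sets of the same design ran parallel to the members that passed. The likeness is Pearson's r of floored log2 intensity over 16 arrays, which share the samples and the large step from day 0, and is a description without a test. The closest to Mdm2 aa415488_rc_at were Jak2 (r = 0.933), Dnpep (0.859) and Gltp (0.842), and the closest to Ccng1 were Itgb5 (0.935), Ddit4 (0.898) and Cox7a2l (0.889). Ddit4 is itself on the list of p53 targets. The closest to Gadd45a were Ermp1 (0.933), Vldlr (0.933) and Ltbp3 (0.931), and to Plk2 they were Alyref (0.917), Dtymk (0.914) and Psat1 (0.912). For Mdm2 aa415488_rc_g_at they were Jak2 (0.882), Lima1 (0.854) and Tnpo2 (0.846).

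Markers of cell types moved over the same days, and their part in the members' changes was not tested. In bulk RNA, fewer cells of a type and less RNA per cell cannot be told apart. The summed level above the floor of 6 epithelial genes went from between 4093 and 5344 on day 0 to between 415 and 988 late, nearly all of it Krt18, while Cldn3, Krt19, Epcam and Cdh1 were never above the floor. Of 8 otic and hair cell genes with a probe set, 5 (Gata3, Pax2, Eya1, Myo6 and Myo7a) were above the floor on at least 8 arrays, and the sum over this list went from between 100 and 466 to between 750 and 1123, while Atoh1, Sox2 and Fgfr3 were never above it. The sum of 9 mesenchymal genes, led by Dcn and Vim, was between 6436 and 9814 on day 0 and between 8476 and 24049 late. Only 4 of the 9 were above the floor on at least 8 arrays, while Col1a2 and Thy1 never were and Pdgfra was on 1. That of macrophage and blood cell genes was between 1616 and 5349 on day 0 and between 3818 and 13070 late, with Lyz2, Ptprc, Cd14 and Cd68 above the floor on most arrays and Csf1r and Adgre1 never. The sums of endothelial genes (0 to 98 on day 0 and 0 to 297 late) stayed low, and those of neural and glial genes went from between 1316 and 1989 to between 485 and 696.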

How the data were processed

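Total RNA of UB/OC-1 cells was measured on 2 array designs of 16 arrays each. The deposited values are intensities, linear whole numbers with negatives, and the 2% trimmed mean of each array lay between 300.4 and 300.8. For the authors' software and background method the sources used here give nothing. Of 6584 (a) and 6595 (b) probe sets, 61 per design were controls and left out.

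Intensities were floored at the 75th percentile of the absolute negative values of a design, and log2 was taken. Tested were probe sets that exceeded it on 2 or more of the 16 arrays (4294 and 3432). R 4.3.3 and limma 3.58.1 were used (lmFit, then eBayes with trend and robust), each design alone, with 12 residual degrees of freedom for the phases, two-sided, and Benjamini-Hochberg adjustment over both designs. Ties at the floor have no spread, and p-values there can be too small. The scripts were tested on simulated data.

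Experiment pairs the samples: the difference between A and B on a day correlated with that on another, with r from 0.33 to 0.70 in 6 such pairs. It is a block only in the results that say so. The members and lists were chosen with earlier results of these data known. All member probe sets are named; of a list, up to 6 genes that passed, largest change first, plus Trp53, Mdm4, Bax, Ccng2, Gadd45b, Gadd45g and Cdkn1b. Gene symbols came from the platform annotation. Alternatives were other floors, filters, scales, normalizations, phase limits, a noise covariate, experiment A alone and each array left out. The test of a difference in response between experiments and the experiment term were added after seeing the data.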

Additional observations from a re-analysis of the deposited data

Results flagged for a closer look

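In 5 of 30 groups of member values looked at (10 probe sets in the early, middle and late days), 1 array stood apart from the others of its phase by more than Dixon's limit of 0.71 for 5 arrays, on floored log2 values. Chance alone passes it in about 1 of 20 groups, but that rate does not apply to groups in which arrays are tied at the floor. The Mdm2 probe set of design b read 678 on day 4 of experiment B, where the nearest middle array read 235, and 242 on day 9 of B, where the other late arrays were all at the floor. Ccng1 read 883 on day 11 of experiment A, below the nearest late array at 1494. Cdkn1a u09507_f_at read 928 on day 9 of experiment B, above the nearest late array at 238. Fas M83649_s_at read 161 on day 9 of experiment B, where the other late arrays were all at the floor. The gap to the nearest array took up the whole range of the Mdm2 probe set of design b late and of Fas, because the other 4 arrays were tied at the floor. On the intensities themselves it was 0.584 and 0.483 of the range, under the limit. The same share of the range was 0.707 for the Mdm2 probe set in the middle days, 0.649 for Ccng1 and 0.717 for Cdkn1a, so only the last of the 5 exceeded the limit on intensities.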

How the results depend on the processing

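The share of all tested probe sets called moved with the settings, lowest with no filter or the lower floor and highest with the block. It ran from 1.41% to 6.07% early, 3.35% to 12.4% middle and 4.37% to 14.5% late. In the time course it ran from 5.22% to 16.1%, and late against early from 0.306% to 2.38%. On days 2, 4 and 9 the ranges were 0.0416% to 2.14%, 0.781% to 4.47% and 1.17% to 6.8%. The counts of member probe sets called, with the reported count in brackets, moved as follows. On day 2 (1) the count was 0 with the lower floor, the filter on 8 arrays, quantile normalization, the arcsinh scale or the noise covariate, 3 with no filter and 2 with experiment as replicate block. On day 4 (1) it was 0 with quantile normalization or the noise covariate, 2 with plain eBayes and 3 with the block, and on day 9 (1) it was 2 with the block. Early (3) it was 4 on the arcsinh scale, 2 with no filter or early as days 1 and 2, and 1 in experiment A alone. In the middle days (4) it was 6 with the lower floor or the arcsinh scale, 5 with the higher floor, the noise covariate or the block, 2 with no filter and 1 in experiment A alone. Late (3) it was 2 with the lower floor, quantile normalization, the arcsinh scale, plain eBayes or A alone, and 1 with no filter or with late as days 9 to 14. In the time course (4) it was 5 with the lower floor, the arcsinh scale or the block, and 3 with no filter or in A alone. Late against early (0) it was 1 with the block, the noise covariate or early as days 1 and 2, and 2 with late as days 9 to 14. With no filter more probe sets are tested and adjusted for, and experiment A alone has fewer arrays; the cause of the other moves was not tested. Leaving out 1 array gave 1 to 5 calls early, 1 to 5 middle, 1 to 3 late, 0 to 2 late against early, 2 to 5 in the time course, 0 to 2 on day 2, 0 to 1 on day 4 and 0 to 1 on day 9. Over all tested, leaving out 1 array other than day 0 called 2.23% to 4.37% early, 6.01% to 9.28% middle and 8.59% to 12% late. In the time course that share was 8.31% to 12.1%, and late against early 0.388% to 1.53%. The member ranges also hold fits that leave 1 array on day 0 or on a shared day, for which no share is given here. The block changed no member call other than those given beside the results. Signs turned only in changes that did not pass. Cdkn1a late was -0.0238 with quantile normalization and -0.0386 in experiment A alone for the probe set of design b, and -0.291 in A alone for that of design a. The Mdm2 probe set of design b late (-0.02) was 0.275 with the block, 0.713 with the noise covariate and ran from -0.107 (without day 0 of A) to 0.0579 (without day 0 of B) with 1 array left out. On day 9 (0.06) it was -0.199 with quantile normalization and ran from -0.0825 (without day 9 of B), by -0.0203 (without day 0 of A), to 0.207 (without day 9 of A). Of 866 other values under the settings 806 kept direction and side of the threshold, and of 1040 with 1 array left out 980 did. The day 0 group has 2 arrays, and Fas M83649_s_at and the Mdm2 probe set of design b lie close to the floor, where changes are understated.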
